A study of Mus musculus with 3 samples.

Results

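On the mouse autosomes 19 stretches of 1 Mb were rich in binding sites of thyroid hormone receptor alpha (TRα) and of retinoid X receptor (RXR) while holding fewer sites of thyroid hormone receptor beta (TRβ). They were chosen by peak counts. Autosomes were cut into 1 Mb bins by peak start, and a bin was kept when it held at least 10 TRα peaks, at least 10 RXR peaks and fewer TRβ than TRα peaks. The rule kept 19 of 2421 bins (0.785%), and all 234 TRα, 112 TRβ and 232 RXR peaks in them are described here, 578 of the 24389 peaks in the series. Because the counts of the 3 lists made the choice, the richness in TRα and RXR and the TRβ counts below those of TRα are a description of the bins and not a result.

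Thyroid hormone receptors are hormone-dependent transcription factors. They usually pair with RXR on paired copies of a short half-site, and without hormone they stay on chromatin and recruit corepressor complexes. RXR is the common partner of many other nuclear receptors, among them the retinoic acid receptors and the liver X receptors, so an RXR site need not be a thyroid hormone receptor site. In the nervous system thyroid hormone acts through both receptors during the maturation of neurons and glia.

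The study mapped binding in C17.2, a mouse neural progenitor cell line, with 1 library per group and 3 libraries in all. Line C17.2a stably expressed tagged TRα and line C17.2b stably expressed tagged TRβ. Each receptor carried a protein G tag and was recovered on IgG beads, a chromatin affinity purification called ChAP. RXR came from C17.2a, the line with tagged TRα, by precipitation with a pan-RXR antibody on protein A beads. All cells were untreated and had spent 24 h in serum-free medium before fixation. TRα and RXR therefore share a line, whereas TRβ differs from both in line as well as in receptor, and these differences cannot be told apart. The RXR antibody was used on cells that held the IgG-binding tag of TRα. Whether it also recovered tagged TRα directly was not tested, and this bears on every overlap of TRα and RXR peaks below. The sources used here do not say whether each line is 1 clone. All positions are on mouse build mm9, and no gene or DNA sequence is named, since no annotation or genome of that build was used here.

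The libraries held 16033622 to 19786966 unique tags, and the lists 7174 TRα, 10021 TRβ and 7194 RXR peaks. The median TRβ peak spanned only 168 bp, the median TRα peak 559 bp and the median RXR peak 701.5 bp. The weakest called peak held 6 TRβ tags, or 10 tags in the other lists, so weaker sites were not called. There were no replicates and no control library, so no p-value is given. Intervals in brackets are 95% Wilson intervals for shares and Newcombe intervals for their differences. They cover counting error only, and neighbouring peaks of a bin are not replicates.

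The 19 bins lay on 13 of the 19 autosomes, and no bin touched another. On chromosome 12 there were 3. The first, from 8 to 9 Mb, held 12 TRα, 7 TRβ and 11 RXR peaks. From 88 to 89 Mb there were 16 TRα, 9 TRβ and 12 RXR peaks, the highest TRα count of the 19. Between 113 and 114 Mb the counts were 10, 4 and 12 in the same order. Chromosomes 2, 4, 5 and 10 carried a pair of bins each. On chromosome 2 the bin at 128 to 129 Mb held 15 TRα, 2 TRβ and 13 RXR peaks, and the bin at 167 to 168 Mb held 15, 5 and 11. Chromosome 4 had 14, 9 and 14 peaks at 134 to 135 Mb, and 13, 5 and 11 at 149 to 150 Mb. The chromosome 5 bins held 13, 6 and 12 peaks at 125 to 126 Mb, and 10, 6 and 13 at 139 to 140 Mb. TRβ counts thus ranged widely among bins that were alike in TRα. On chromosome 10 the counts were 11, 5 and 13 at 66 to 67 Mb, and 14, 8 and 10 at 79 to 80 Mb.

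The remaining 8 bins stood alone on their chromosomes. Chromosome 1 from 193 to 194 Mb held 10 TRα, 5 TRβ and 13 RXR peaks, and chromosome 6 from 72 to 73 Mb held 11, 6 and 15, the highest RXR count. The bin on chromosome 7 from 87 to 88 Mb had 10, 6 and 13 peaks, and that on chromosome 8 from 124 to 125 Mb had 14, 8 and 12. Chromosome 11 from 87 to 88 Mb held 11, 5 and 11, and chromosome 14 from 70 to 71 Mb held 15, 6 and 14. These 6 covered nearly the whole range of TRα counts. Chromosome 16 from 4 to 5 Mb had 10, 8 and 11 peaks, and chromosome 19 from 10 to 11 Mb had 10, 2 and 11. Over the 19 bins the median was 12 TRα, 6 TRβ and 12 RXR peaks, against 2, 4 and 2 over all autosomal bins.

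**Figure D1:**
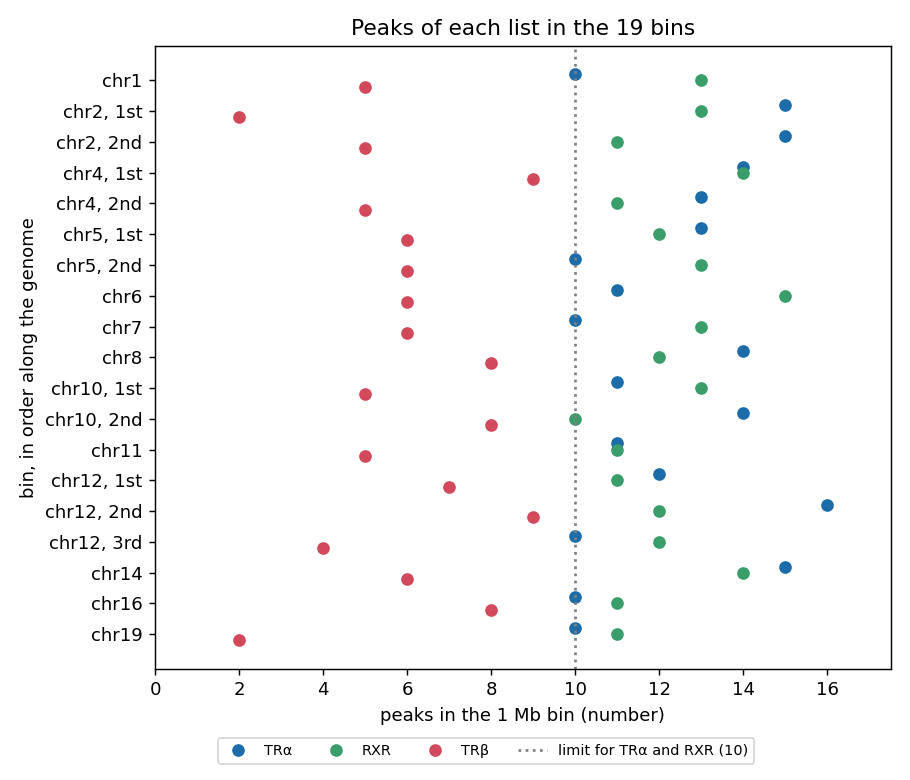
Number of TRα, RXR and TRβ peaks (x axis) in each of the 19 bins, 1 row per bin in order along the genome. The dotted line is the limit of 10 used for TRα and RXR, and TRβ counts run from 2 to 9.

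The limit ran through a continuum of bins. Of the members, 6 held exactly 10 TRα peaks and 1 held exactly 10 RXR peaks. A further 12 bins with fewer TRβ than TRα peaks fell 1 peak short of a limit, of which 9 had enough TRα but 9 RXR peaks. Another 6 bins met both limits but had as many or more TRβ peaks, with 31 TRβ peaks on chromosome 5 from 15 to 16 Mb, 75 on chromosome 8 from 19 to 20 Mb and 46 on chromosome 9 from 3 to 4 Mb. The other 3 of these 6, on chromosome 8 from 73 to 74 Mb and 86 to 87 Mb and on chromosome 10 from 80 to 81 Mb, had 12 to 14 TRβ peaks and differ from members by only a few peaks. The 38 bins directly beside a member held a median of 4.5 TRα, 5 TRβ and 4 RXR peaks. TRα counts were above the autosomal median of 2 in 29 of these 38 bins, against 1104 of all 2421 autosomal bins. RXR counts were above their median of 2 in 27 of 38, against 1145 of 2421. TRβ counts were above their median of 4 in 21 of 38, against 830 of 2421, so all 3 lists were above the autosomal share beside the members.

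Inside the bins the sites were strung out and seldom packed into a single cluster. The outermost TRα summits of a bin lay between 417 and 969 kb apart, with a median of 755 kb. Neighbouring TRα summits lay a median of 37.45 kb apart (quartiles 18.4 and 84.95), against 104 kb in the other autosomal bins, a contrast that the counts largely fix. Of 215 such gaps, 31 (14.4%) were 10 kb or shorter, against 8.27% in the other autosomal bins. For RXR it was 31 of 213 (14.55%) against 7.12%, and for TRβ 7 of 93 (7.53%) against 10.05%. The peak counts that chose the bins bear on these shares too. The shortest window with 5 TRα summits measured 37.6 kb, on chr12:8364176-8401795, and the longest such window of a bin measured 283 kb, on chromosome 19.

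**Figure D2:**
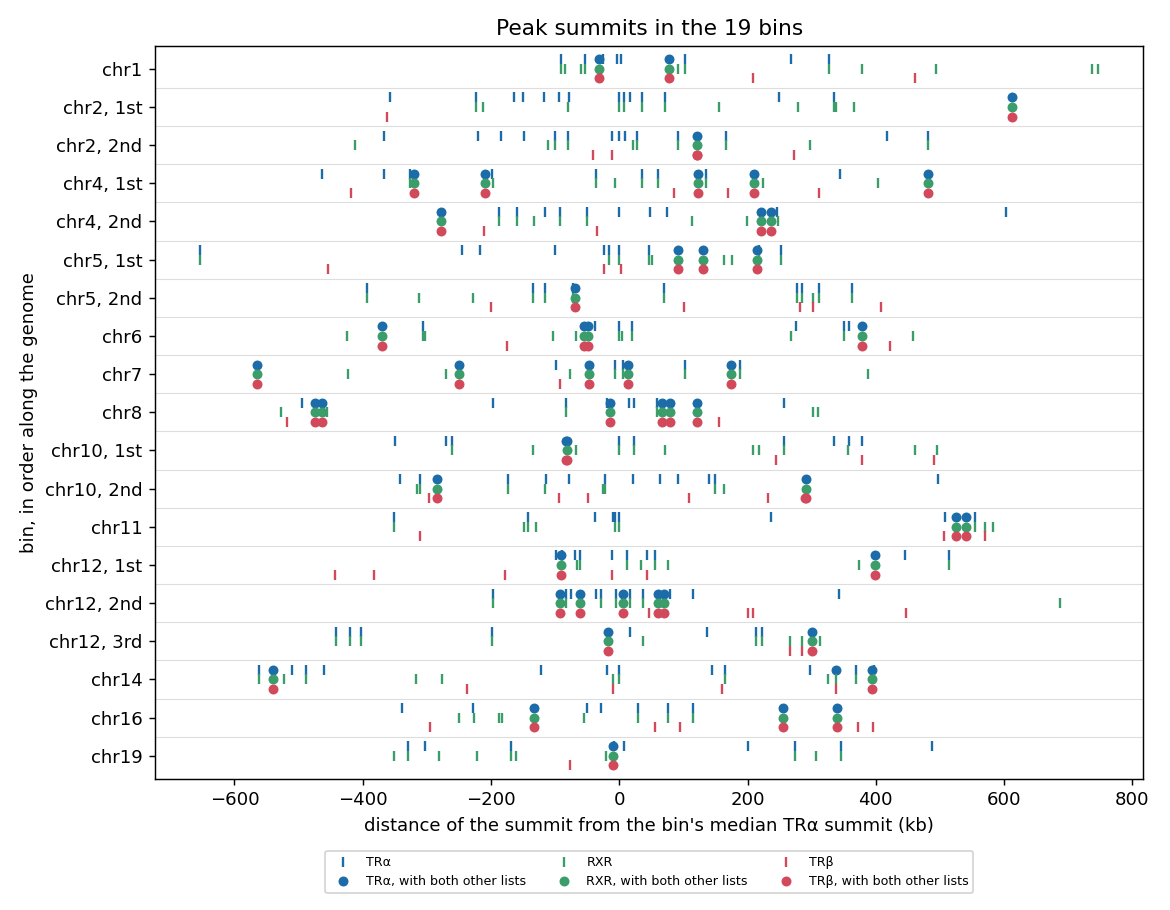
Summits of TRα, RXR and TRβ peaks in the 19 bins, as distance in kb from the bin's median TRα summit (x axis), 1 row per bin. Filled circles mark peaks that overlap a peak of both other lists, found in each of the 19 bins, and ticks mark all other peaks.

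The closest spacing belonged to the second chromosome 12 bin, where TRα summits followed each other at a median of 13.5 kb. There 13 of the 16 TRα summits fell within 171 kb, from 88111354 to 88282267, a stretch picked out after its values were seen, and 10 of the 13 TRα peaks had an RXR peak. The stretch held 5 sites of all 3 lists. The strongest, a TRα peak at chr12:88110956-88111866, had 96 TRα, 18 TRβ and 87 RXR tags. The site near 88141560 had 55, 15 and 52 tags, and the one near 88208816 had 29, 7 and 29. At the last of them, chr12:88272822-88274198, the counts were 70, 42 and 93, the only one of the 5 with over 20 TRβ tags. Between these lay chr12:88264587-88265293 with 46, 16 and 39 tags. After position 88318474 the bin was sparse. It held 1 TRα peak of 15 tags, 3 TRβ peaks of 6, 6 and 8 tags and 1 RXR peak of 10 tags, with no overlap among them.

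Peaks of TRα and RXR, the heterodimer partners mapped in the same tagged line, overlapped more often in these bins than elsewhere on the autosomes. An RXR peak overlapped 150 of the 234 TRα peaks by at least 1 bp, or 64.1% (57.8 to 69.98), against 47.0% of all autosomal TRα peaks. In the bins outside the 19 the share was 46.4%, a difference of 17.7 points (11.25 to 23.7). TRα peaks in turn covered 149 of the 232 RXR peaks (64.2%, 57.9 to 70.1), with a background of 46.5% over all autosomal RXR peaks and 45.9% outside the 19 bins, a difference of 18.3 points (11.9 to 24.3). The TRα share with RXR was above the share outside in 18 of 19 bins and ran from 45.5% (5 of 11 peaks), on chromosome 10 from 66 to 67 Mb, to 100% (10 of 10 peaks) on chromosome 5 from 139 to 140 Mb. A site with both peaks counts toward both limits of the rule, so these shares are tied in part to how the bins were chosen.

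Counted per bin, TRα peaks with RXR numbered 7.89 in the 19 bins and 1.29 in the other autosomal bins. TRα peaks without RXR also numbered more, at 4.42 against 1.49 per bin, and RXR peaks without TRα numbered 4.37 against 1.51. All 3 kinds of site were thus more frequent in the members, which were chosen for many TRα and RXR peaks. Over all autosomes the RXR share of TRα peaks was 36.8% in bins with 1 to 3 TRα peaks, 50.9% with 4 to 6, 53.6% with 7 to 9 and 57.0% with 10 or more. Comparison with bins that met the limits only in part gave differences in either direction. In bins with at least 10 RXR but under 10 TRα peaks, at any TRβ count, 76.9% of 143 TRα peaks had RXR, above the members. Of the 202 RXR peaks in those bins 54.5% had TRα, below the members. In the 21 bins with at least 10 TRα peaks, fewer TRβ than TRα peaks but under 10 RXR peaks, 53.1% of 228 TRα peaks had RXR, 11.0 points below the members (2.05 to 19.8). The reverse held for RXR peaks, of which 75.5% of 159 in those 21 bins had TRα. The members minus those bins gave -11.25 points (-20.0 to -1.92). Such opposite differences follow in part from the choice, since bins with few peaks of a list offer fewer partners of that list. In the 12 bins just short of a limit the TRα share with RXR was 57.3%, and the difference from the members, 6.84 points, had an interval from -3.64 to 17.4.

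The flanking megabases had shares below those of the members. Of their 170 TRα peaks 49.4% had RXR, 14.7 points below the members (4.92 to 24.2), and of their 160 RXR peaks 52.5% had TRα, 11.7 points below (1.83 to 21.4).

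**Figure D3:**
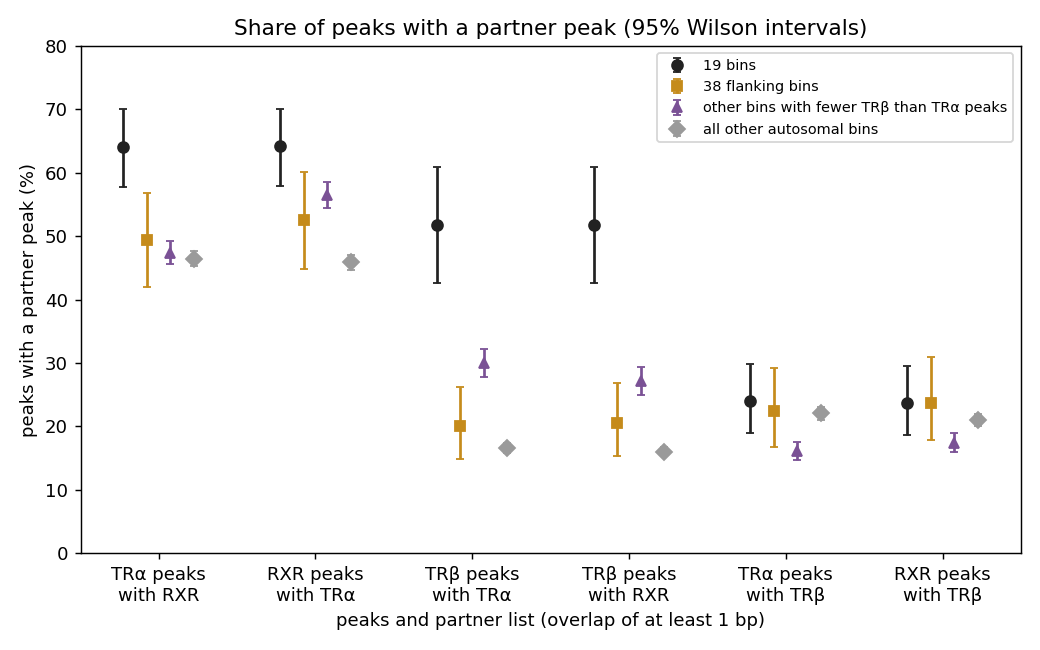
Share of peaks (y axis, percent) that overlap a peak of the named partner list, in the 19 bins, the 38 flanking bins, the 574 other bins with fewer TRβ than TRα peaks and all other autosomal bins. Bars are 95% Wilson intervals, and TRβ peaks of the 19 bins stand at 51.8% for either partner.

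TRβ peaks were fewer than TRα peaks in each bin, as the rule asks, but at a median of 6 per bin they were above the autosomal median of 4, with 16 of 19 bins above it. They sat on TRα and RXR sites about as often as not. Of the 112 TRβ peaks, 58 (51.8%, 42.6 to 60.8) overlapped a TRα peak, against 17.0% of all autosomal TRβ peaks. The same number, 58 (51.8%), overlapped an RXR peak, against 16.4% of all autosomal TRβ peaks. Outside the 19 bins the shares were 16.6% and 16.0%, lower by 35.2 and 35.8 points. The rule bears on these shares, since it chose bins with a mean of 12.3 TRα and 12.2 RXR peaks, against 2.85 and 2.87 over all autosomal bins, and a TRβ peak there had more possible partners. They are therefore given as a description, with no test of the difference. The share with TRα ran from 16.7% (1 of 6 peaks) on chromosome 5 from 139 to 140 Mb to 83.3% (5 of 6 peaks) on chromosome 7. Both partners were present at 54 of the 112 TRβ peaks, 4 had TRα alone, 4 had RXR alone and 50 (44.6%) had neither. Of the 9348 TRβ peaks in the other autosomal bins, 1775 had a TRα or RXR partner and 7573 had neither.

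Counts per bin show which TRβ peaks made up that difference. TRβ peaks with a TRα or RXR partner numbered 3.26 per member bin and 0.739 per other autosomal bin. TRβ peaks with neither numbered 2.63 per member bin against 3.15 in the other bins. The requirement of fewer TRβ than TRα peaks bears on the latter. In the 574 other bins that met this requirement, 29.95% of 1549 TRβ peaks had TRα, 21.8 points below the members, but those bins also held fewer TRα peaks. In the 21 bins at the TRα limit but below the RXR limit it was 46.1% of 128 TRβ peaks, and the difference of 5.69 points had an interval from -6.89 to 18.0, so TRα-rich bins with fewer RXR peaks could not be set apart from the members by this measure. With RXR, the partner these bins hold less of, it was 39.1%, a difference of 12.7 points (0.123 to 24.8). In the flanking bins 20.0% of 190 TRβ peaks had TRα, and 20.5% had RXR.

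The size of the TRβ shares depended on how overlap was counted. With summits within 200 bp of each other, 49.1% of the TRβ peaks had TRα, against 15.3% in the other bins. When the overlap had to cover at least 50% of both peaks, which a TRβ peak of a median 200.5 bp seldom can against the wider TRα and RXR peaks, 14 of 112 (12.5%) had TRα against 3.35% outside. Under that rule 1 of 112 TRβ peaks (0.893%) had RXR against 1.29% outside, and the excess at RXR was lost.

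Seen from TRα, the share of sites with TRβ could not be set apart from that of all other bins. TRβ peaks overlapped 56 of 234 TRα peaks, or 23.9% (18.9 to 29.8), close to the background of 22.1%. The difference from the bins outside was 1.89 points, with an interval from -3.23 to 7.83. Against the 574 other bins with fewer TRβ than TRα peaks, where 16.1% of TRα peaks had TRβ, it was 7.86 points (2.65 to 13.9). Those bins held fewer TRβ peaks each, so this difference is tied to the choice of bins. Of the RXR peaks 55 of 232 (23.7%) had TRβ, against a background of 21.1%, and the difference of 2.70 points had an interval from -2.41 to 8.65. TRβ was found mostly at those TRα sites that also had RXR, namely at 53 of 150 TRα peaks with RXR (35.3%, 28.1 to 43.3) and at 3 of 84 without (3.57%, 1.22 to 9.98), against 39.0% and 7.33% in the other autosomal bins. In the 6 bins with as many or more TRβ peaks, 63.6% of 77 TRα peaks had TRβ. The members minus those bins gave -39.7 points (-50.8 to -27.1). That direction was favoured in advance by the choice of bins, since TRβ counts separate these 6 bins from the members.

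Peak strength differed modestly between these bins and the rest. TRα peaks held a median of 26 tags (quartiles 19 and 37), against 21 in the other autosomal bins, and RXR peaks 27 against 22. TRβ peaks held 10 tags against 8. The median fold over regional background, the authors' own value for a peak, was 7.89 for TRα against 7.65, 7.57 for RXR against 7.50, and 10.3 for TRβ against 10.9. The MACS score is minus 10 times log10 of the peak's p-value. Its median was 60.2 for TRα against 52.9, 57.7 for RXR against 51.7, and 49.5 for TRβ against 45.1. Each autosomal list was cut into 5 classes of equal size by score, class 1 being the best. Of the 112 TRβ peaks 42 (37.5%) belonged to class 1 and 10 to class 5. TRα peaks were spread more evenly, with 50 of 234 (21.4%) in class 1 and 29 (12.4%) in class 5. So were RXR peaks, with 51 of 232 (22.0%) in class 1 and 34 (14.7%) in class 5.

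Strong peaks have partners more often in every list, so shares were also set side by side within these score classes. All 50 TRα peaks of class 1 had RXR, against 93.98% in the other autosomal bins. In class 3 it was 34 of 58 TRα peaks (58.6%, 45.8 to 70.4) against 37.5%, the widest gap of the 5. Weighted to the same mix of classes, 53.2% of the other autosomal TRα peaks had RXR, which leaves 10.9 of the 17.7 points. For TRβ peaks the share with TRα was 85.7% (36 of 42) against 54.2% in class 1 and 59.1% (13 of 22) against 13.7% in class 2. The same weighting gave 25.4% for other autosomal TRβ peaks, which leaves 26.4 of the 35.2 points. It did not match the bins for their TRα and RXR counts, so the points left in both comparisons remain tied to the rule. For TRα peaks with TRβ it gave 24.9%, beside 23.9% in the members. In class 1, 25 of 50 member TRα peaks (interval 36.6 to 63.4%) had TRβ, against 59.5% of the others.

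**Figure D4:**
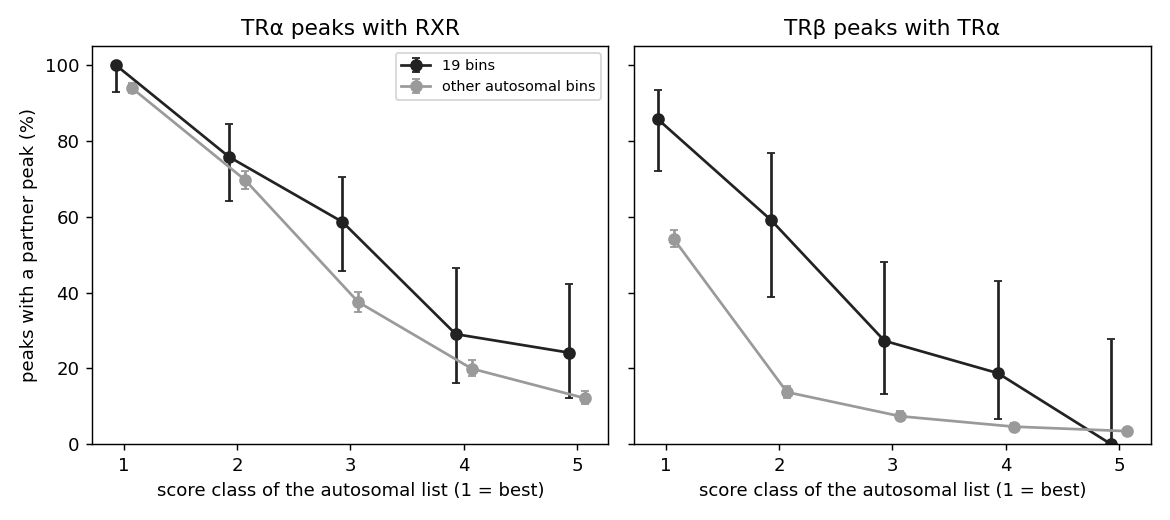
Share of TRα peaks with RXR (left) and of TRβ peaks with TRα (right), in percent, for each score class of the autosomal list, from the best (1) to the last (5). Bars are 95% Wilson intervals, and the TRβ share of the 19 bins was 85.7% in class 1 against 54.2% in the other autosomal bins.

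Merging overlapping peaks gave 366 sites in the 19 bins. TRα and RXR without TRβ formed the most frequent kind, with 97 sites (26.5%, 22.2 to 31.2), against 10.5% of the sites in the other autosomal bins. TRα alone accounted for 81 sites (22.1%) and RXR alone for 79 (21.6%), close to the 18.5% and 19.2% elsewhere. All 3 lists met at 52 sites (14.2%, 11.0 to 18.2), against 6.75% elsewhere. TRβ alone accounted for 50 sites (13.7%), whereas it accounted for 42.4% elsewhere, a gap that the limits of the rule favour. Since all kinds are counted over the same total, that gap raises the shares of the other kinds in the members. Sites of TRα and TRβ without RXR numbered 3 (0.820%) and those of TRβ and RXR without TRα numbered 4 (1.09%), kinds as rare elsewhere, at 1.47% and 1.15%.

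Sites of all 3 receptors occurred in each of the 19 bins, from 1 to 6 per bin. By the sum of their ranks, the strongest was chr11:87945171-87946188. TRα had 138 tags there, TRβ 56 and RXR 122, at folds of 22.3, 21.3 and 16.4. The peaks ranked 21, 98 and 25 in the 3 lists of the whole genome. Next was chr8:124668332-124670022, with 170 TRα, 42 TRβ and 167 RXR tags, in the bin with 6 such sites. Its TRα rank of 19 was the best of any member, whereas its TRβ rank was 237. The site chr16:4435008-4436339 had 111, 42 and 128 tags, and chr4:149076521-149077508 had 97, 26 and 86. At both, TRα and RXR ranked between 84 and 123 and TRβ at 478 and 494.

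The other 6 of the 10 best sites included 3 of the chromosome 12 sites given above, with 96, 46 and 70 TRα tags. The site chr7:87609640-87610254 had 49, 14 and 55 tags. On chromosome 14, chr14:70973928-70975019 had 57, 19 and 58 tags, and on chromosome 6, chr6:72416897-72417756 had 63, 16 and 61. TRβ held the poorest of the 3 ranks at 8 of the 10 sites, although its list is the longest and its ranks run further. Scaled to tags per 1000000 unique tags of the library, TRβ was below both TRα and RXR at all 10, where its peaks were also the narrowest. The same order was usual in the other autosomal bins. There TRα was higher in 90.0% of overlapping TRα and TRβ pairs, and TRβ was higher in 3.21% of TRβ and RXR pairs.

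The best-scoring TRα peak of a bin had RXR in all 19 bins and TRβ in 10. These peaks, with scores of at least 92.4, all belonged to class 1, where 93.98% of TRα peaks in the other autosomal bins had RXR and 59.5% had TRβ, shares near those of the 19 peaks. The strongest of the other 9 was chr5:139170194-139171081, with 95 TRα tags, a fold of 15.6 and rank 92, and its RXR peak held 76 tags with a fold of 11.8. Rank 147 belonged to chr12:113129751-113130569 with 74 TRα tags. The peak chr5:125873037-125874121 held 80 tags, chr2:128139019-128140108 held 65 and chr1:193048061-193049131 held 70. These had ranks of 196, 368 and 406, so they lay in the best-scoring part of the TRα list without a called TRβ peak. The remaining 4 were chr10:66393484-66394885 (119 tags), chr19:10644046-10644736 (37 tags), chr12:8372125-8372712 (48 tags) and chr2:167411498-167412250 (36 tags). The last of these ranked 1404, the poorest among the best TRα peaks of the 19 bins.

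On chromosome 5 from 139 to 140 Mb TRα and RXR came nearest to a complete match. All 10 TRα peaks there had RXR, 3 RXR peaks had no TRα, and 1 of 6 TRβ peaks met TRα, at chr5:139493729-139494009 with 14 TRβ tags against 32 TRα and 24 RXR tags. The share of TRα peaks with TRβ was highest, at 5 of 10, in the bin on chromosome 7, where 9 of 10 had RXR. Its 5 sites of all 3 lists ran from 8 to 15 TRβ tags and from 24 to 49 TRα tags. By number the chromosome 8 bin had more, with 6 of its 14 TRα peaks meeting TRβ.

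Peaks with no partner had lower median scores than peaks with both partners in every list. Median scores of TRα peaks were 48.3 where neither other receptor was called (81 peaks), 69.3 with RXR alone (97 peaks) and 87.05 with both (53 peaks). RXR peaks stood in the same order, at 46.7 for 79, 64.9 for the 98 with TRα alone and 76.9 for the 51 with both. For TRβ the medians were 43.8 without a partner (50 peaks) and 65.4 with both (54 peaks). By score the best without a partner were a TRα peak at chr2:167511933-167512639 (28 tags, rank 1578), an RXR peak at chr12:113570244-113570723 (21 tags, rank 879) and a TRβ peak at chr2:167471909-167472096 (9 tags, rank 1692). By tags others without a partner were higher, up to 77 for TRα, 144 for RXR and 16 for TRβ.

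Overlapping peaks had summits close to each other. Summits of the 150 TRα peaks and their RXR partners lay a median of 31.5 bp apart, and 128 (85.3%) lay within 100 bp, against 91.6% in the other autosomal bins. For the 56 TRα and TRβ pairs the median was 37 bp, with 48 (85.7%) within 100 bp, against 34 bp and 87.4% elsewhere. TRβ and RXR summits were farther apart, at a median of 60 bp over 58 pairs with 41 (70.7%) within 100 bp, against 38 bp and 82.1% elsewhere. Depth-scaled tags were somewhat lower for TRα than for RXR, with a log2 ratio of TRα to RXR of -0.31 in the median (quartiles -0.69 and -0.05), and -0.37 elsewhere. TRα exceeded TRβ by a median log2 ratio of 1.14 (0.74 to 1.66), and by 1.02 elsewhere, with tags counted over TRα peaks of 687 bp and TRβ peaks of 267 bp in the median. Across the 150 TRα and RXR pairs the tags had a Spearman correlation of 0.759, and across the 3095 pairs elsewhere 0.757. These pairs share 2 libraries and peaks of related width, and are not replicates.

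**Figure D5:**
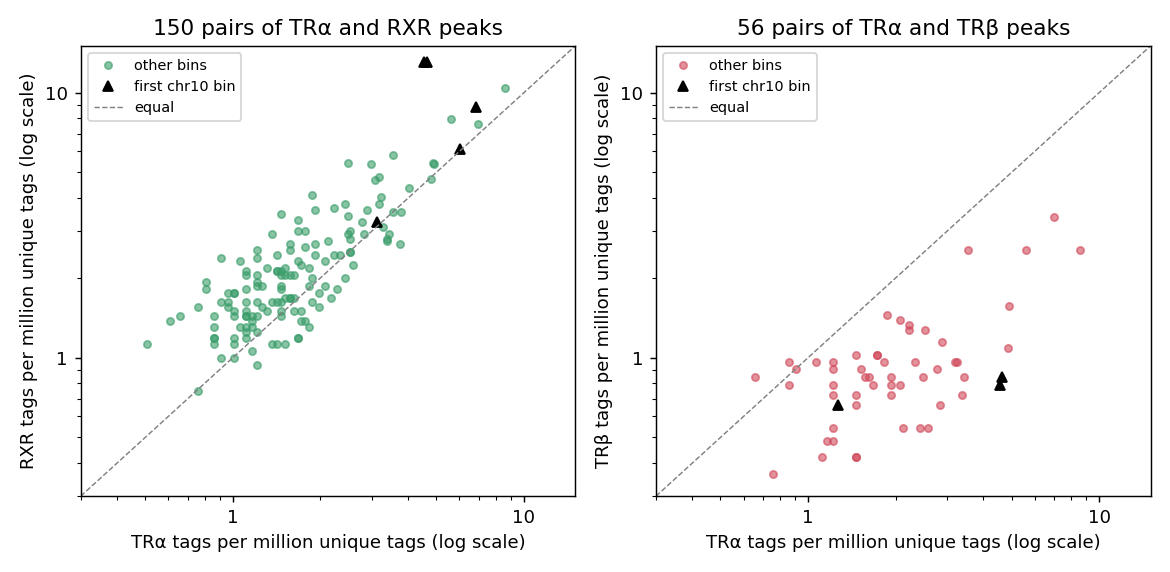
Tags per 1000000 unique tags (log axes) of each TRα peak in the 19 bins and of its overlapping RXR peak (left, 150 pairs) or TRβ peak (right, 56 pairs). Points on the dashed line would be equal, and triangles mark the chromosome 10 bin at 66 to 67 Mb, whose TRα peaks held a median of 71 tags.

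One bin stood apart from the other 18. On chromosome 10 from 66 to 67 Mb the median TRα peak held 71 tags and was 1191 bp wide, whereas in the other bins these medians ran from 18 to 35 tags and from 465 to 795 bp. RXR peaks there held a median of 57 tags at 1280 bp, against 21.5 to 37 tags and 655 to 998.5 bp in the other bins. TRβ peaks did not share this, with 11 tags at 223 bp, inside the range of 6.5 to 16 tags and 162.5 to 294.5 bp of the other bins. The median TRα fold of 5.53 was the lowest of the 19 bins. Broad TRα peaks with low folds, chr10:66042747-66044675 (67 tags, fold 4.36) and chr10:66123386-66125127 (77 tags, fold 3.13), had no partner.

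For TRα the high tag counts reached beyond the bin on 1 side. In the 2 bins before it, from 64 to 65 Mb and from 65 to 66 Mb, TRα peaks held medians of 53 and 38 tags at 1223 and 1066 bp, and in the bin after it 26 tags at 704 bp. For RXR there was 1 peak of 35 tags at 1195 bp from 64 to 65 Mb, and a median of 17 tags at 751 bp over 5 peaks from 65 to 66 Mb. TRβ peaks of these 3 bins held medians of 7 to 10.5 tags. Inside the bin the libraries with high tag counts, TRα and RXR, both came from line C17.2a, and line, receptor and library cannot be told apart here. Without this bin 65.0% of TRα peaks had RXR, 66.2% of RXR peaks had TRα and 51.4% of TRβ peaks had TRα.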

How the data were processed

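Per the submitters' processing notes, CASAVA 1.7, Bowtie 0.12.7 and build mm9 were used. Per the file headers, MACS ran on single libraries with no control, with a p-value cut-off of 1.00e-04 and a fragment model d of 139, 56 and 174 bp for TRα, TRβ and RXR. The sources used here give no MACS version. The count of tags in a peak was not normalized by the authors. The deposited score equals -10 × log10(p-value). The authors also deposited a fold ratio, read here as tags over regional background, which the headers do not define. No blacklist of regions was applied.

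RXR starts were raised by 1 bp, since their lengths showed a start counted from 0. Bins, overlaps (at least 1 bp), Wilson and Newcombe intervals and score classes were computed in Python 3.11.15 (pandas 2.3.3, numpy 2.4.6, scipy 1.17.1, matplotlib 3.10.9). Bins ran from the first to the last bin with a peak on each chromosome. Overlaps and intervals were tested on simulated data. Alternatives were other overlap rules, stricter lists, shifted bins, other limits and a bin left out.

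The bins and lists were chosen with earlier results of these data known. Peaks named are the best-scoring TRα peak of each bin, the 10 sites of all 3 lists with the lowest rank sums and the best peak of each list without a partner, with others chosen after their values were seen. Fixed gene lists and nearest genes were not analysed here.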

Additional observations from a re-analysis of the deposited data

How the results depend on the processing

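For 11 results, 75 alternative values were computed under 8 settings. Of these, 60 stayed within the 95% interval of the reported value, or within 1.5 times for the number of bins, and 15 did not. Summits within 200 bp and leaving out the bin with the most peaks (chromosome 12 from 88 to 89 Mb, chosen over a tied bin by its TRα count) moved none, nor did leaving out the chromosome 10 bin at 66 Mb, a setting chosen after seeing the data. With a reciprocal overlap of 50%, which narrow TRβ peaks rarely meet by construction, TRβ peaks with TRα came to 12.5%, TRβ with RXR to 0.893%, TRα with TRβ to 5.98% and RXR with TRβ to 0.431%. Restricted to the 50% of peaks with the better scores, TRα with TRβ was 30.9% and RXR with TRβ 30.5%, the median TRα fold 8.99 and the RXR fold 8.55, and the TRα gap 64.9 kb, with fewer peaks by construction. With bins offset by 0.5 Mb, which kept 14 bins, 72.5% of RXR peaks had TRα. Limits of 12 peaks kept 6 bins, with RXR peaks at TRα 72.7%, RXR at TRβ 29.9% and a median RXR fold of 8.13, and limits of 8 kept 52 bins. Where no construction is named, the cause was not tested. Sites weaker than the lowest called peaks, of 6 TRβ tags or 10 tags in the other lists, could not be seen. No paired analysis was possible because no group had more than 1 library. Settings for genes were not run.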
